A study of Mus musculus with 8 samples.

Results

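The transcript response of Rbp2-/- mouse embryonic stem (ES) cells to withdrawal of leukemia inhibitory factor (LIF) was measured on 4 arrays, chosen by their titles from the 8 samples of the study. Rbp2-/- ES cells kept for 6 days in ES cell medium lacking LIF gave 2 of these arrays, and subconfluent Rbp2-/- ES cells in complete ES cell medium gave the other 2. The remaining 4 samples were Rbp2f/f ES cells, f/f being the usual notation for floxed alleles, handled in the same manner, with 2 arrays without LIF and 2 with LIF. The comparison asks which transcripts change when cells labelled as lacking RBP2 lose the LIF signal. RBP2 stands here for the retinoblastoma-binding histone demethylase of that name, and its gene is now called Kdm5a. The labels name the 2 samples of a group biological replicates without naming clones, cultures or a feeder layer, so the p-values reflect how far these samples differ among themselves, and that spread may be technical.

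LIF binds a receptor made of LIFR and gp130 and activates the transcription factor STAT3, which holds mouse ES cells in an undifferentiated state together with OCT4, SOX2 and NANOG. When LIF is withdrawn in serum-containing medium, ES cells switch off the naive pluripotency network and enter mixed differentiation, often through cells that resemble the primitive streak and its mesoderm. KDM5A removes methyl groups from lysine 4 of histone H3, a mark of active promoters, and has been studied as a regulator of the exit from the cell cycle and of differentiation genes.

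All values below are intensities of Affymetrix mouse 430 2.0 probe sets after quantile normalization of the 8 arrays, with 1 probe set per gene. Normalization was needed because replicate 2 of Rbp2-/- with LIF was dim, its trimmed mean being 65.5% of the average of the others. A log2 change is the mean of log2(intensity + 16) without LIF minus that with LIF, which understates the change of dim genes, and is followed by its standard error from limma. Dimness was not the only feature of that array. On a scale where 0 is the mean Rbp2f/f array with LIF and 1 the mean Rbp2f/f array without LIF, the Rbp2-/- arrays without LIF lay at 0.83 and 0.879, and those with LIF at 0.0796 in replicate 1 and 0.316 in replicate 2. Replicate 2 with LIF also correlated at 0.899 and 0.924 with the arrays of its genotype without LIF, against 0.887 and 0.894 for replicate 1, across genes. The 2 arrays with LIF were therefore not equally far from the arrays without LIF, and counts are given with and without that array. The 3'/5' ratio of Gapdh, a check of RNA and labelling, lay between 0.782 and 0.822 on the Rbp2-/- arrays. Summed over 8 ES cell markers the intensity was 3206 and 3477 without LIF, against 19920 and 16370 with LIF, and 8 of the 8 markers fell, so the arrays with LIF carry the signature their label gives. In bulk RNA, fewer cells of a type and less RNA per cell cannot be told apart.

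Kdm5a, the deleted gene, still gave signal in Rbp2-/- cells. Its normalized intensity was 94 and 66.1 without LIF, against 33.9 and 43.2 with LIF, compared with 207.5 and 222.6 without LIF, against 132.6 and 166 with LIF in Rbp2f/f cells. Every Rbp2-/- array was below every Rbp2f/f array, and within Rbp2-/- cells both arrays without LIF were above both with LIF (log2 change 0.81 ± 0.22, adjusted p = 0.0367). Kdm5a lost its call when replicate 1 without LIF or replicate 1 with LIF was left out (adjusted p 0.143 to 0.237). Cyclic loess normalization also ended this call. Whether the probes lie inside the deleted part of the gene is not given in the sources used here.

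LIF withdrawal changed 1675 of 10916 tested genes in Rbp2-/- cells (15.3%, limma adjusted p under 0.05). Of all tested genes 793 rose (7.26%) and 882 fell (8.08%). List counts below without a share beside them are to be read against these shares. The median change over all tested genes was 0.0008. Changes of at least 4-fold were more often falls, with 147 genes that fell (1.35%) against 51 that rose (0.467%). Without replicate 2 with LIF the count was 1645 (15.1%), with 836 rises (7.66%) and 809 falls (7.41%), and 1218 calls were shared, 72.7% of the first list and 74% of the second. Each of the 4 Rbp2-/- arrays was left out in turn, and 460 genes (4.21%) passed in all 4 of these fits. Arrays of the 2 media did not overlap for 3143 genes that were higher without LIF (28.8%) and 3247 that were lower (29.7%), and 3375 genes (30.9%) had an unadjusted p under 0.05. Leaving out replicate 1 without LIF cut the count to 557, replicate 2 without LIF to 1032 and replicate 1 with LIF to 907. The split of rises and falls depends on how the arrays are scaled, with 85.6% rises among 2487 calls without normalization, 66.8% among 1561 after median centring and 47.3% as reported. Those 2 scalings moved the median change of all genes to 0.38 and 0.14.

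The largest falls included genes known from undifferentiated ES cells and others known from germ cells or differentiated tissues. Dppa2, a chromatin protein of early embryos and ES cells, had a normalized intensity of 41.5 and 38.1 without LIF, against 1063.1 and 939.6 with LIF (log2 change -4.19 ± 0.18, adjusted p = 1.66e-05). Dnmt3l, the catalytically inactive partner of the de novo DNA methyltransferases, had 108.6 and 48.3 without LIF, against 1969.2 and 1409.4 with LIF (log2 change -4.23 ± 0.30, adjusted p = 8.2e-05). Nr0b1, which encodes the nuclear receptor DAX1, had 33.7 and 22.2 without LIF, against 729.6 and 784.6 with LIF (log2 change -4.15 ± 0.28, adjusted p = 6.29e-05). Arrays with and without LIF were far apart for all 3 genes. Fbxo15, an F-box gene used as a reporter of pluripotency, changed by -4.12 ± 0.35, Tex19.1, which restrains retrotransposons in germ cells, by -3.77 ± 0.66, and Morc1, a germline gene-silencing factor, by -3.71 ± 0.35. L1td1, an RNA-binding protein derived from a retrotransposon, changed by -3.54 ± 0.37, the RAS family member Eras by -3.36 ± 0.32, and the TGF-beta family ligand Gdf3 by -3.37 ± 0.18. Rbmxl2, a testis RNA-binding protein, Ina, a neuronal intermediate filament, and Pla2g1b, a secreted phospholipase, were at -3.41, -3.36 and -3.33. The 10 smallest adjusted p-values also held Gpa33, Gsta4 and Mkrn1, a surface glycoprotein, a glutathione transferase and a ubiquitin ligase, at -3.25, -2.61 and -2.58.

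**Figure D1:**
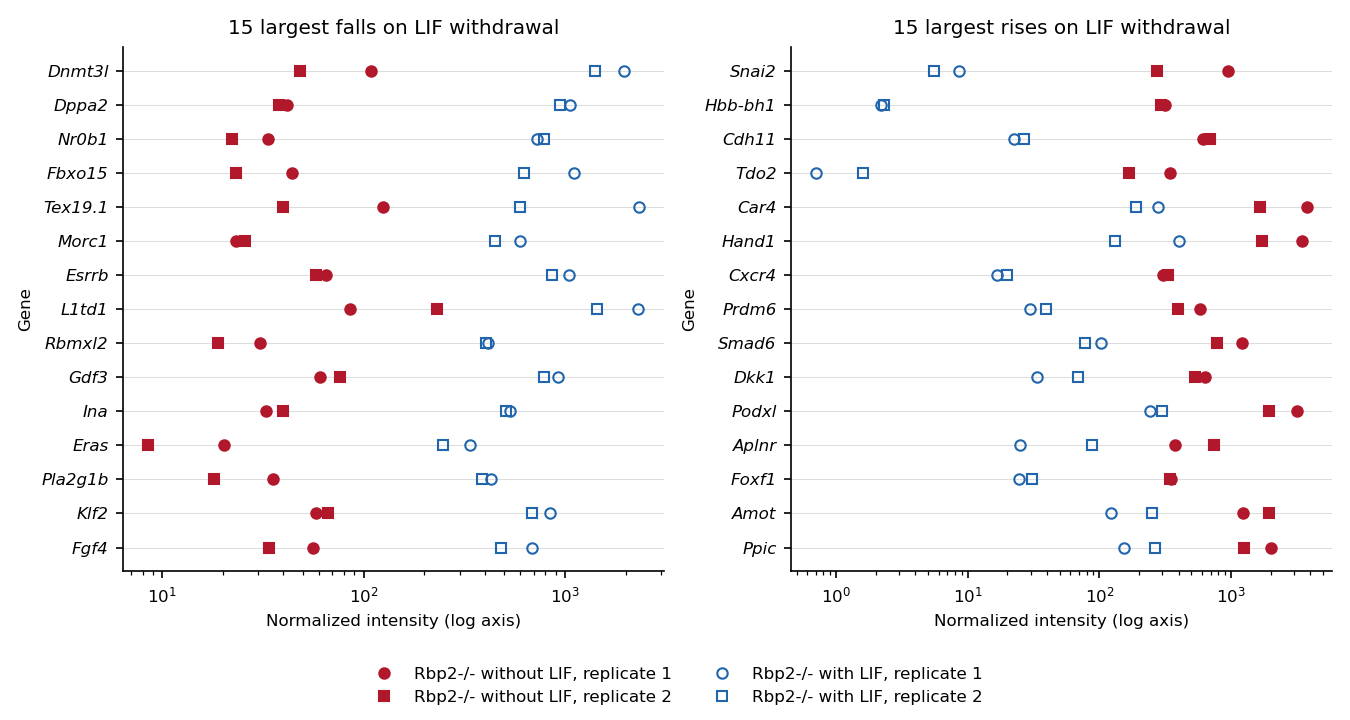
Normalized intensity (log axis) of the 15 genes with the largest falls (left panel) and the 15 with the largest rises (right panel) on LIF withdrawal in Rbp2-/- cells, with 1 symbol per array, filled without LIF and open with LIF. For every gene the 2 arrays without LIF lie on one side of the 2 arrays with LIF, as the rule for choosing them required, and Dppa2 reads 41.5 and 38.1 without LIF against 1063 and 939.6 with LIF.

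Pluripotency factors fell in both the core and the naive list. Of 9 tested core factors 6 fell and 0 rose, with a median log2 change of -1.11. The 6 falls held in all 4 fits that left out an array. Pou5f1, which encodes OCT4, had 227.7 and 361 without LIF, against 2574.2 and 2131.8 with LIF (log2 change -2.96 ± 0.24, adjusted p = 0.00014). Sox2, its DNA-binding partner, had 233.7 and 255.2 without LIF, against 2424.9 and 1505.9 with LIF (log2 change -2.89 ± 0.21, adjusted p = 8.89e-05). Nanog, the homeobox factor that stabilizes self-renewal, had 305.3 and 231.3 without LIF, against 2535.9 and 1511.7 with LIF (log2 change -2.81 ± 0.26, adjusted p = 0.000288). For each of the 3 genes both arrays without LIF were several-fold below both arrays with LIF. Utf1, a chromatin factor of ES cells, changed by -2.77 ± 0.29, and Rif1, a telomere and replication-timing factor, by -1.11 ± 0.16.

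Of the 13 naive pluripotency factors 11 fell and 1 rose, with a median of -2.65. All 11 falls held in all 4 fits that left out an array. Klf4, a Krüppel-like factor downstream of STAT3, had 81.9 and 83.4 without LIF, against 833.1 and 997.6 with LIF (log2 change -3.23 ± 0.18, adjusted p = 2.46e-05). Tfcp2l1, another direct target of STAT3, had 28.3 and 42.2 without LIF, against 427.1 and 547.3 with LIF (log2 change -3.30 ± 0.25, adjusted p = 9.35e-05). Esrrb, an orphan nuclear receptor, had 65.4 and 58.2 without LIF, against 1044.2 and 858.4 with LIF (log2 change -3.63 ± 0.18, adjusted p = 2.24e-05). In these genes the arrays of each group lay close together relative to the gap between the groups. Klf2 changed by -3.31 ± 0.22, Zfp42, also called Rex1, by -2.48 ± 0.27, and Gbx2, a homeobox gene induced by STAT3, by -2.65 ± 0.31. Tbx3, a T-box factor that serves both naive ES cells and early mesendoderm and heart, was the member that rose, with 397.5 and 440.9 without LIF, against 166.4 and 185 with LIF (log2 change 1.18 ± 0.25, adjusted p = 0.0128). Its arrays did not overlap, as for 28.8% of all tested genes in that direction. Tbx3 lost its call when replicate 1 or 2 without LIF or replicate 1 with LIF was left out (adjusted p 0.0605 to 0.0659).

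Of 21 tested ES cell marker genes 20 fell and 0 rose (median -2.71), and 18 of these calls held in all 4 fits that left out an array. Dppa5a, an RNA-binding protein, fell while staying abundant, with 2136.4 and 1642.3 without LIF, against 8180.7 and 8236.9 with LIF (log2 change -2.12 ± 0.13, adjusted p = 4.7e-05). Fgf4, the growth factor that primes ES cells for differentiation, had 55.9 and 33.9 without LIF, against 683 and 483.2 with LIF (log2 change -3.30 ± 0.28, adjusted p = 0.000163). The maternal-effect genes Dppa3 and Ooep changed by -2.71 ± 0.22 and -2.51 ± 0.18. Tdgf1, the Nodal co-receptor Cripto, fell with less certainty, since its arrays without LIF read 163.6 and 887.8. Tdgf1 lost its call when replicate 1 without LIF or replicate 1 or 2 with LIF was left out (adjusted p 0.0811 to 0.172).

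Genes of the LIF pathway itself fell or did not pass. Of 23 tested members of the receptor and STAT3 list 6 fell, 0 rose and the median was -0.27, and without replicate 2 with LIF 4 fell and 1 rose. Of the 6 calls 2 held in all 4 fits that left out an array. After arrays were left without normalization the median was 0.16. Gab1, an adaptor that couples cytokine receptors to ERK and PI3 kinase, had 282.5 and 276.2 without LIF, against 1345.9 and 935.3 with LIF (log2 change -1.95 ± 0.21, adjusted p = 0.000576). Bcl3, an IkappaB family member induced by LIF, had 57.1 and 47.3 without LIF, against 153.2 and 148.2 with LIF (log2 change -1.29 ± 0.20, adjusted p = 0.00327). Both calls held in all 4 fits that left out an array. Socs2, Pim1 and Mcl1, a suppressor of cytokine signalling, a serine/threonine kinase and a survival factor that STAT3 induces, changed by -1.39 ± 0.33, -1.25 ± 0.32 and -0.85 ± 0.18. Socs2 and Mcl1 lost their calls when replicate 1 without LIF or replicate 1 with LIF was left out (adjusted p 0.0654 to 0.109). Pim1 lost its call when replicate 1 without LIF or replicate 2 with LIF was left out (adjusted p 0.118 to 0.201). One further probe set of Socs2 moved the other way. The receptor subunits did not pass, with Lifr at 0.46 ± 0.24 (adjusted p = 0.222, but -0.088 with the mean of its probe sets and -0.83 with its most variable one) and Il6st, which encodes gp130, at 0.13 ± 0.20 (adjusted p = 0.714). Socs3, the main feedback inhibitor of this receptor, read 427.1 and 215.6 without LIF, against 533.8 and 428.1 with LIF (adjusted p = 0.198).

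The promoter of Gab1 is shown because Gab1 had the smallest p among the list members with a STAT motif there. It spans 250 bases before to 50 after the RefSeq start site at chr8:80880470-80880769 (minus strand, GRCm38.p6), is 1 of 2 promoters listed for the gene, and has the STAT motif (TTCNNNGAA, either strand, a palindrome) in capitals.
Gab1: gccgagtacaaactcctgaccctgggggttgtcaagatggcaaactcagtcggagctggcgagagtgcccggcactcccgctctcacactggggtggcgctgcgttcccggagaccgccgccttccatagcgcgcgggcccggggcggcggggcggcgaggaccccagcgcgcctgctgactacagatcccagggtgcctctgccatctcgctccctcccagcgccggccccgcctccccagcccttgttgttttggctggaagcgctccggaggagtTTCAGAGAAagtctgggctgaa
The motif was in 5 of 25 promoters of the tested list members, 20% of them, against 8.3% of 32851 promoters of this length, and these matches describe the sequence only.

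The largest rises came from genes of several kinds. Snai2, which encodes the transcriptional repressor SLUG, had 947.6 and 273 without LIF, against 8.6 and 5.5 with LIF (log2 change 4.52 ± 0.57, adjusted p = 0.00126). Cdh11, a cadherin of mesenchymal cells, had 608.4 and 694.8 without LIF, against 22.4 and 26.8 with LIF (log2 change 4.04 ± 0.22, adjusted p = 2.24e-05). Hand1, a basic helix-loop-helix factor of lateral mesoderm and trophoblast, had 3454.7 and 1709.2 without LIF, against 403.1 and 132.1 with LIF (log2 change 3.30 ± 0.54, adjusted p = 0.00431). Cdh11 was tight in both groups. Snai2 and Hand1 spread more widely between replicates, and all 3 calls held in all 4 fits that left out an array. Car4, a membrane carbonic anhydrase, had 3804 and 1673.9 without LIF, against 276.4 and 188.3 with LIF (log2 change 3.38 ± 0.49, adjusted p = 0.00249), and Podxl, a sialomucin of epithelia and vascular progenitors, had 3189.7 and 1937.9 without LIF, against 240.4 and 300.5 with LIF (log2 change 3.14 ± 0.27, adjusted p = 0.000191). Prdm6, a repressor known from smooth muscle, changed by 3.30 ± 0.28, the angiomotin gene Amot by 3.02 ± 0.31 and the cyclophilin gene Ppic by 2.87 ± 0.29. Hbb-bh1, an embryonic beta-like globin, had 314.9 and 292.6 without LIF, against 2.2 and 2.3 with LIF (log2 change 4.13 ± 1.12, adjusted p = 0.0367), and Tdo2, tryptophan dioxygenase, had 342.4 and 167.1 without LIF, against 0.7 and 1.6 with LIF (log2 change 3.90 ± 0.70, adjusted p = 0.00679). Hbb-bh1 lost its call when any 1 of the 4 arrays was left out (adjusted p 0.0906 to 0.159). The log2 change of Hbb-bh1 itself stayed between 4.08 and 4.18 in those fits, and the error shared over groups includes its Rbp2f/f arrays without LIF, at 781.2 and 13.3. Tdo2 lost its call when replicate 1 without LIF was left out (adjusted p = 0.0633).

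Of 27 measured transcription factors and signals of lateral mesoderm, 18 were bright enough on average over the 8 arrays to be tested. Genes dim with LIF could pass that filter only by being bright without LIF, so no share of rises is read from the list. Of 18 tested members 14 rose and 0 fell, with a median of 1.49, and 15 rose without replicate 2 with LIF. In all 4 fits that left out an array 8 of the rises held. Foxf1, a forkhead factor of splanchnic mesoderm, had 346.9 and 346.5 without LIF, against 24.6 and 30.7 with LIF (log2 change 3.06 ± 0.33, adjusted p = 0.000584). Msx2, a homeobox target of BMP signalling, had 1640.2 and 1127.6 without LIF, against 123.2 and 290.2 with LIF (log2 change 2.74 ± 0.38, adjusted p = 0.00194). Gata6, a zinc-finger factor of cardiac mesoderm and endoderm, had 301.4 and 280.1 without LIF, against 42.6 and 49.5 with LIF (log2 change 2.31 ± 0.32, adjusted p = 0.00187). No array without LIF overlapped those with LIF for these 3 genes, as for 28.8% of all tested genes in that direction. Tbx20, a cardiac T-box gene, changed by 1.89 ± 0.26, Pdgfrb, the PDGF receptor of mesenchyme and pericytes, by 1.94 ± 0.23, and Twist1, a helix-loop-helix factor of mesoderm and neural crest, by 1.48 ± 0.21. Gata4, a cardiac partner of GATA6, and Kdr, the VEGF receptor of vascular progenitors, changed by 1.495 ± 0.28 and 1.40 ± 0.36. Gata4 lost its call when replicate 1 without LIF was left out (adjusted p = 0.0543). Kdr lost its call when replicate 2 without LIF or replicate 1 or 2 with LIF was left out (adjusted p 0.071 to 0.164).

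BMP signalling genes gave 11 rises and 0 falls among 23 tested (47.8% called, against 15.3% of all tested genes, median 0.75). Without replicate 2 with LIF 13 rose. Of the rises, Bmp4, Msx1 and Msx2 are also in the lateral mesoderm list. Of the 11 rises 4 held in all 4 fits that left out an array. Among ligands, Bmp5 had 184.5 and 138.6 without LIF, against 2.7 and 15.3 with LIF (log2 change 2.86 ± 0.37, adjusted p = 0.0013) and Bmp4, the ligand that patterns mesoderm, had 1096.9 and 838.9 without LIF, against 389.9 and 524.3 with LIF (log2 change 1.06 ± 0.25, adjusted p = 0.0204). Among inhibitors induced by the pathway, Smad6, an inhibitory SMAD, had 1221.5 and 779 without LIF, against 102.9 and 78.3 with LIF (log2 change 3.23 ± 0.26, adjusted p = 0.000142), and Bambi, a pseudoreceptor, had 872 and 489.7 without LIF, against 107.5 and 89.1 with LIF (log2 change 2.56 ± 0.32, adjusted p = 0.00115). Arrays with and without LIF did not overlap for any of the 4, as for 28.8% of all tested genes in that direction. Bmper, a secreted BMP-binding protein, changed by 1.49 ± 0.31. Bmp4 lost its call when replicate 1 without LIF or replicate 1 with LIF was left out (adjusted p 0.102 to 0.155). Bmper lost its call when replicate 2 without LIF was left out (adjusted p = 0.0825).

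Genes of the primitive streak, the structure that precedes mesoderm in the embryo, were split by replicate. Of 14 tested members 3 rose and 0 fell (median 0.88), and 0 of these held in all 4 fits that left out an array. The list mean without LIF was 1.501 log2 units higher in replicate 2 than in replicate 1, against 0.24 between the Rbp2f/f replicates without LIF. Mixl1, a homeobox gene of the streak, had 130.5 and 1040.1 without LIF, against 86.4 and 143.5 with LIF (adjusted p = 0.163). Lhx1, a LIM factor of axial mesendoderm, had 15.9 and 239.1 without LIF, against 6.5 and 3.3 with LIF (adjusted p = 0.0825), and Eomes, a T-box factor of streak and trophoblast, had 149.6 and 746 without LIF, against 156.9 and 248.7 with LIF (adjusted p = 0.408). In all 3 the high value was in replicate 2 alone. Cyp26a1, the enzyme that clears retinoic acid in the early embryo, had 110.3 and 708.8 without LIF, against 105.6 and 98.3 with LIF, and Nodal, the ligand that induces the streak, had 83.7 and 474.3 without LIF, against 665 and 857.1 with LIF. Cdh1, which encodes E-cadherin, read 530.1 in replicate 1 and 1583 in replicate 2 without LIF. Snai2 and the collagen gene Col1a1 ran the other way, with Col1a1 at 2746.2 and 632.9 without LIF, against 387.2 and 188 with LIF. The members that passed were Evx1, Foxa2 and Msgn1, factors of streak, endoderm and presomitic mesoderm, at 1.52 ± 0.37, 1.10 ± 0.24 and 1.02 ± 0.28. Evx1, Foxa2 and Msgn1 lost their calls when replicate 1 or 2 without LIF or replicate 1 with LIF was left out (adjusted p 0.0552 to 0.211).

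**Figure D2:**
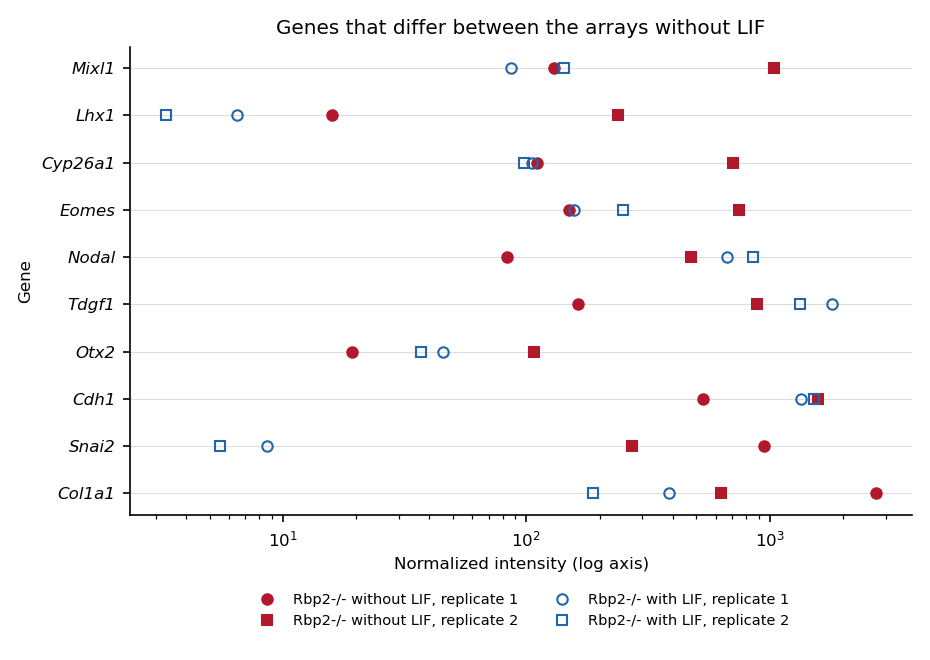
Normalized intensity (log axis) of 10 genes that differ between the Rbp2-/- arrays without LIF, chosen after their values were seen, with filled symbols for arrays without LIF and open symbols for arrays with LIF. Mixl1 reads 130.5 in replicate 1 and 1040 in replicate 2 without LIF, while Col1a1 reads 2746 and 632.9.

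Over all tested genes, 205 (1.88%) differed by over 2-fold between the Rbp2-/- replicates without LIF and 436 (3.99%) between those with LIF, against 69 (0.632%) and 339 (3.11%) for Rbp2f/f without and with LIF. Among formative and primed epiblast genes, expressed as naive cells progress, 2 of 17 rose and 6 fell (median -0.77), and 5 of these calls held in all 4 fits that left out an array. Cd24a, a surface sialoglycoprotein, rose with 4357.3 and 4029 without LIF, against 627.2 and 1585.4 with LIF (log2 change 2.05 ± 0.33, adjusted p = 0.00398). Etv4, Etv5 and Foxd3, ETS and forkhead factors shared with ES cells, changed by -2.62 ± 0.27, -2.35 ± 0.32 and -2.08 ± 0.31. Otx2 and Fgf5, defining genes of that stage, did not pass, with Otx2 at 19.3 and 107.7 without LIF, against 45.5 and 37.1 with LIF and Fgf5 at 1.6 and 63.3 without LIF, against 1 and 26.4 with LIF.

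Regulators of the epithelial to mesenchymal transition gave 5 rises and 0 falls among 19 tested (26.3% called, against 15.3% of all tested genes, median 0.67). Without replicate 2 with LIF 11 rose, and 4 of the 5 rises held in all 4 fits that left out an array. Of the 5, Snai2 and Twist1 are also in the lateral mesoderm list. Snai1, the repressor that starts the transition, had 159.5 and 184.5 without LIF, against 54.3 and 83.3 with LIF (log2 change 1.17 ± 0.22, adjusted p = 0.00831), and the inducing cytokine Tgfb1 had 368.2 and 443.8 without LIF, against 104.4 and 131.3 with LIF (log2 change 1.66 ± 0.22, adjusted p = 0.00151). Their arrays did not overlap, as for 28.8% of all tested genes in that direction. Snai1 lost its call when replicate 2 without LIF was left out (adjusted p = 0.0509). Cdh2, which encodes N-cadherin, missed the threshold with 433.6 and 656.2 without LIF, against 146.1 and 325.1 with LIF (adjusted p = 0.0668). Vimentin, the intermediate filament of mesenchyme, was already bright with LIF, at 6550.1 and 6616.2 without LIF, against 4769 and 5960.7 with LIF (Vim, log2 change 0.30 ± 0.21, adjusted p = 0.359). Epithelial junction genes showed no common direction, with 1 of 29 higher and 1 lower (6.9% called, against 15.3% of all tested genes, median 0.04). Cdh1 changed by -0.63 ± 0.40 (adjusted p = 0.322), Epcam, an epithelial adhesion molecule, by -0.96 ± 0.34 (adjusted p = 0.0856), and Dsp, which encodes the desmosome protein desmoplakin, read 831.6 and 1369.3 without LIF, against 276.7 and 571.6 with LIF (adjusted p = 0.0764). Ovol2, a repressor that maintains epithelia, fell with 19.6 and 25.8 without LIF, against 58.4 and 54.3 with LIF (log2 change -0.91 ± 0.21, adjusted p = 0.0195). Ovol2 lost its call when replicate 1 without LIF or replicate 1 with LIF was left out (adjusted p 0.0749 to 0.134).

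The promoter of Dsp, chr13:38151044-38151343 (plus strand, GRCm38.p6, RefSeq), is shown as the epithelial promoter holding a Snail and ZEB E-box (CACCTG on either strand) whose gene had the smallest p, with the match in capitals.
Dsp: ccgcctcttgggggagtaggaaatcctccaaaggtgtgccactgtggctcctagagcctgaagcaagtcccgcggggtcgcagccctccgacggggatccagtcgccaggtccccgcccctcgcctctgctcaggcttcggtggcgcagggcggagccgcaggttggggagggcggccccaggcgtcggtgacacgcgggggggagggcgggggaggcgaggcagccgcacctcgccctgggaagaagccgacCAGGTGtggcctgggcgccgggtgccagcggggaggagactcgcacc
The E-box was in 17 of 22 promoters of the tested epithelial members (77.3%), against 20.2% of 32851 promoters, and these matches describe the sequence only. In that list 1 member rose, 1 fell, and Dsp itself did not pass, with a positive change of 1.39 ± 0.47.

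Wnt pathway genes gave 6 rises and 3 falls among 25 tested (36% called, against 15.3% of all tested genes, median 0.64). Without replicate 2 with LIF there were 12 rises and 2 falls. Of the 9 calls 4 were lost without replicate 1 without LIF and 6 without replicate 1 with LIF, and 3 held in all 4 fits that left out an array. Dkk1, a secreted Wnt antagonist, had 635.3 and 535.6 without LIF, against 33.8 and 68.6 with LIF (log2 change 3.21 ± 0.30, adjusted p = 0.00029), and Wnt5a, a ligand of the non-canonical branch, had 382.2 and 344.3 without LIF, against 24.8 and 82.6 with LIF (log2 change 2.58 ± 0.35, adjusted p = 0.00176). Receptors moved in both directions, Fzd7 by 1.33 ± 0.27 and Fzd5 by -2.10 ± 0.25, and Tcf7l1, the repressor that acts on pluripotency genes, changed by -0.92 ± 0.19. Fzd7 lost its call when replicate 2 without LIF or replicate 1 with LIF was left out (adjusted p 0.0546 to 0.0679). Tcf7l1 lost its call when replicate 1 without LIF or replicate 1 with LIF was left out (adjusted p 0.0704 to 0.104). In the FGF and ERK list 2 of 22 rose and 7 fell (median -0.34), and 4 of these calls held in all 4 fits that left out an array. The feedback inhibitor Spry4 had 31.2 and 89.6 without LIF, against 246.6 and 289.3 with LIF (log2 change -2.004 ± 0.35, adjusted p = 0.00581), and the immediate early gene Egr1, an ERK target, had 76.9 and 121.5 without LIF, against 392.4 and 392.8 with LIF (log2 change -1.85 ± 0.40, adjusted p = 0.0143). The ligand Fgf3 rose while Fgf4 fell, Fgf3 with 147.1 and 97.8 without LIF, against 24.4 and 20.2 with LIF (log2 change 1.83 ± 0.36, adjusted p = 0.0102). Egr1 lost its call when replicate 1 without LIF or replicate 1 with LIF was left out (adjusted p 0.0589 to 0.111). Fgf3 lost its call when replicate 1 without LIF was left out (adjusted p = 0.089). In the Nodal list 1 of 15 rose and 3 fell, and 2 of these calls held in all 4 fits that left out an array. Of the falls, Gdf3 and Tdgf1 are also in the ES cell marker list. Pcsk6, a convertase of Nodal precursors, changed by -1.53 ± 0.26, and the type I receptor Acvr1b by 0.92 ± 0.18, although another probe set of Acvr1b moved the other way. Acvr1b lost its call when replicate 1 without LIF or replicate 1 with LIF was left out (adjusted p 0.0506 to 0.0783). In the retinoic acid list, 10 tested of 17 measured, 0 rose and 1 fell (10% called, against 15.3% of all tested genes). The fall was the receptor gene Rarg at -0.95 ± 0.19. Rarg lost its call when replicate 1 without LIF was left out (adjusted p = 0.0831).

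In the apelin, CXCR4 and PDGF receptor systems of migrating mesoderm 3 of 11 tested genes rose and 2 fell (median 0.43), and 4 of these calls held in all 4 fits that left out an array. Aplnr, the apelin receptor, had 372.1 and 748.3 without LIF, against 24.8 and 87.3 with LIF (log2 change 3.07 ± 0.43, adjusted p = 0.00199), while Apela, its early embryonic ligand, had 191.1 and 140.4 without LIF, against 523.8 and 667.3 with LIF (log2 change -1.75 ± 0.29, adjusted p = 0.00433). Cxcr4, a chemokine receptor of mesendoderm, had 305 and 334.1 without LIF, against 16.6 and 19.8 with LIF (log2 change 3.30 ± 0.23, adjusted p = 6.8e-05), and its ligand Cxcl12, which did not pass, read 176.5 and 85.7 without LIF, against 30 and 75.6 with LIF (adjusted p = 0.076). Pdgfrb rose as given above and its family's ligand Pdgfa fell, with 91.3 and 144.2 without LIF, against 239.6 and 370.6 with LIF (log2 change -1.26 ± 0.32, adjusted p = 0.0277). Pdgfa lost its call when replicate 1 without LIF or replicate 2 with LIF was left out (adjusted p 0.113 to 0.192).

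Of 29 measured extraembryonic endoderm genes 18 were bright enough on average to be tested, and 5 rose and 1 fell (median 0.44). Genes dim with LIF could pass that filter only by being bright without LIF, so no share of rises is read from the list. Of the 6 calls 5 were lost without replicate 1 without LIF, and 1 held in all 4 fits that left out an array. Of the rises, Gata4 and Gata6 are also in the lateral mesoderm list and Foxa2 in the streak list. The others were Dab2, an endocytic adaptor, at 1.02 ± 0.22, and Ctsl, a lysosomal protease, at 0.81 ± 0.18. Dab2 lost its call when replicate 1 without LIF or replicate 1 with LIF was left out (adjusted p 0.0724 to 0.116). Ctsl lost its call when replicate 1 or 2 without LIF or replicate 1 with LIF was left out (adjusted p 0.0643 to 0.0993). Sox17, a defining factor of endoderm, read 27.9 and 50.3 without LIF, against 30 and 38.1 with LIF (adjusted p = 0.841). Of 20 trophoblast-associated genes 4 rose and 2 fell (30% called, against 15.3% of all tested genes). Without replicate 2 with LIF 4 rose and 4 fell. Of the 6 calls 2 held in all 4 fits that left out an array. Cdx2, the caudal homeobox gene of trophectoderm and posterior mesoderm, had 203.2 and 190.4 without LIF, against 47.7 and 110 with LIF (log2 change 1.25 ± 0.33, adjusted p = 0.0351), and Tfap2c, an AP-2 factor also present in ES cells, had 73.3 and 50.1 without LIF, against 369.5 and 201.8 with LIF (log2 change -1.92 ± 0.34, adjusted p = 0.00683). Cdx2 lost its call when replicate 1 or 2 without LIF or replicate 1 with LIF was left out (adjusted p 0.103 to 0.165). Of 27 measured Hox genes, the positional identity genes of the body axis, 6 were bright enough on average to be tested, so no share of rises is read from them. Those called were Hoxb2 with 285 and 222.3 without LIF, against 4 and 66 with LIF (log2 change 2.73 ± 0.54, adjusted p = 0.0108) and Hoxd8 with 59 and 57.3 without LIF, against 6.7 and 21.2 with LIF (log2 change 1.35 ± 0.29, adjusted p = 0.0143). Hoxb2 lost its call when replicate 1 without LIF was left out (adjusted p = 0.0791). Hoxd8 lost its call when replicate 1 or 2 without LIF or replicate 1 with LIF was left out (adjusted p 0.0603 to 0.0885).

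Neural genes gave 4 falls and 0 rises among 10 tested (median -1.12), and the 4 calls held in all 4 fits that left out an array. Olig2, a factor of oligodendrocyte and motor neuron precursors, had 4.8 and 22.7 without LIF, against 81.4 and 135.3 with LIF (log2 change -2.10 ± 0.35, adjusted p = 0.00507), and Tubb3, the neuronal tubulin, had 35.7 and 43.4 without LIF, against 145.8 and 127 with LIF (log2 change -1.46 ± 0.19, adjusted p = 0.00142). The neurogenic factor Neurod1 changed by -1.46 ± 0.23. The remaining fall was Gbx2, given above with the naive factors, and 10 of 22 measured members were bright enough to be tested. Members dim without LIF could pass that filter only by being bright with LIF, so no share of falls is read from the list. Sox1 and Pax6, which define neural progenitors, were too dim to test, with Sox1 at 4.1 and 2.5 without LIF, against 3.2 and 4.9 with LIF and Pax6 at 5.8 and 21.6 without LIF, against 22.1 and 19 with LIF. Of 26 measured blood and endothelial genes 11 were tested, and 3 rose and 2 fell. The filter acts on this list too, so no share is read from it. Without replicate 2 with LIF 1 rose and 2 fell. Of the 5 calls 2 held in all 4 fits that left out an array. Flt1, a VEGF receptor, had 74 and 69.8 without LIF, against 7.8 and 7.3 with LIF (log2 change 1.90 ± 0.23, adjusted p = 0.000929), and Esam, an endothelial adhesion molecule, had 8.1 and 26.6 without LIF, against 124.9 and 109.2 with LIF (log2 change -2.05 ± 0.30, adjusted p = 0.00259).

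Collagens and matrix genes gave 6 rises and 0 falls among 31 tested (19.4% called, against 15.3% of all tested genes, median 0.38). Fbn2, a fibrillin of embryonic matrix, had 105.7 and 125.3 without LIF, against 25.3 and 22.3 with LIF (log2 change 1.72 ± 0.27, adjusted p = 0.00335) and held in all 4 fits that left out an array. Col1a1, Col5a1, Vcan, Serpinh1 and Mmp2, genes for collagen chains, a proteoglycan, a collagen chaperone and a matrix protease, rose by 2.22 ± 0.59, 1.22 ± 0.32, 1.38 ± 0.32, 1.18 ± 0.27 and 0.96 ± 0.22. Col1a1 lost its call when replicate 1 without LIF or replicate 1 or 2 with LIF was left out (adjusted p 0.0506 to 0.19). Col5a1 and Vcan lost their calls when replicate 1 or 2 without LIF or replicate 1 with LIF was left out (adjusted p 0.0602 to 0.191). Serpinh1 lost its call when replicate 1 or 2 without LIF was left out (adjusted p 0.0523 to 0.125). Mmp2 lost its call when replicate 1 without LIF or replicate 1 with LIF was left out (adjusted p 0.0701 to 0.151). Feeder fibroblasts share these genes. The summed intensity of 8 fibroblast markers was 3468 and 1112 without LIF, against 785.3 and 671.2 with LIF, with Col1a1 supplying most of the first value, and 1 of the 8 markers passed as a rise. In a longer list of feeder fibroblast genes, 18 measured and 10 tested, 2 rose (Col1a1 and Pdgfrb) and 0 fell, 9 had a positive change, and the median was 0.48. Arrays did not overlap and were higher without LIF for 6 of the 10, against 28.8% of all tested genes. The defining fibroblast genes Dcn and Lum were too dim to test, although both were higher on the arrays without LIF, Dcn at 13.4 and 20.2 without LIF and 11.3 and 3.2 with LIF, and Lum at 22.7 and 18.7 without LIF and 11.3 and 7.4 with LIF. The part of fibroblasts in these matrix changes was not tested.

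Genes driven by SRF and YAP, which report actin dynamics and cell tension, did not move together. Of 22 tested 1 was higher and 1 lower (9.09% called, against 15.3% of all tested genes, median -0.06). Without replicate 2 with LIF 3 rose and 0 fell (median 0.41). Tpm1, a tropomyosin, had 4337.1 and 4895.8 without LIF, against 1927.5 and 3494.7 with LIF (log2 change 0.82 ± 0.23, adjusted p = 0.0427), and Srf itself had 184.8 and 185.5 without LIF, against 278.7 and 314.6 with LIF (log2 change -0.63 ± 0.17, adjusted p = 0.0391). Tpm1 lost its call when replicate 1 or 2 without LIF or replicate 1 with LIF was left out (adjusted p 0.128 to 0.167). Srf lost its call when any 1 of the 4 arrays was left out (adjusted p 0.0724 to 0.169). The promoter of Srf, chr17:46556113-46556412 (minus strand, GRCm38.p6, RefSeq), is shown because Srf had the smallest p among list members with a CArG box there. The CArG box is the motif SRF binds, and its 2 matches are in capitals.
Srf: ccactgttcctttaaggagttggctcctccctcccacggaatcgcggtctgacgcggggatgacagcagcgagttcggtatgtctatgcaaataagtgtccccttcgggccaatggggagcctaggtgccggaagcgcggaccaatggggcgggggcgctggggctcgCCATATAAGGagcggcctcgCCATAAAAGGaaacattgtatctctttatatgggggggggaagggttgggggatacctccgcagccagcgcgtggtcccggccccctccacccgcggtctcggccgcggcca
The CArG box, searched on both strands, was in 5 of 20 promoters of the tested list members (25%), against 1.63% of 32851 promoters. Because the list was drawn up as genes driven by SRF and YAP, that excess is not a separate result. The matches describe the sequence only.

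Among chromatin genes, 7 of 27 Polycomb members fell and 1 rose (29.6% called, against 15.3% of all tested genes, median -0.09). Of these calls 6 held in all 4 fits that left out an array. Cbx7, the chromodomain subunit of Polycomb complex 1 in ES cells, had 82 and 92.8 without LIF, against 414 and 449.2 with LIF (log2 change -2.11 ± 0.20, adjusted p = 0.00031). Jarid2, a DNA-binding subunit of Polycomb complex 2 related to the KDM5 family, had 336.1 and 420.9 without LIF, against 1773.1 and 1507 with LIF (log2 change -2.07 ± 0.19, adjusted p = 0.000279). Phc1, a polyhomeotic subunit, had 744.6 and 798.1 without LIF, against 3630 and 2882 with LIF (log2 change -2.05 ± 0.19, adjusted p = 0.00029). The groups were separate by a wide margin for each. Epop, an ES cell cofactor of complex 2, changed by -2.26 ± 0.22 and Pcgf6, which defines a variant complex 1, by -1.29 ± 0.16. In the DNA methylation and TET list 6 of 11 fell and 0 rose (median -0.65), and 3 of the falls held in all 4 fits that left out an array. Tet1, a 5-methylcytosine oxidase, had 105.1 and 108.5 without LIF, against 536.1 and 444.8 with LIF (log2 change -2.04 ± 0.18, adjusted p = 0.000219), and Dnmt3b, a de novo methyltransferase, had 561.6 and 1045.8 without LIF, against 2004.7 and 2100.2 with LIF (log2 change -1.40 ± 0.26, adjusted p = 0.00792). Tet2 and the maintenance factor Uhrf1 changed by -1.58 ± 0.30 and -0.65 ± 0.16. Tet2 lost its call when replicate 1 without LIF was left out (adjusted p = 0.0633). Uhrf1 lost its call when replicate 1 or 2 without LIF or replicate 1 with LIF was left out (adjusted p 0.0719 to 0.175).

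The H3K4 methylation enzymes, which act on the mark that KDM5A removes, showed 2 rises and 2 falls among 21 tested (median -0.09), and 0 of these calls held in all 4 fits that left out an array. The share called was 19%, against 15.3% of all tested genes. Kdm5a and Kmt2e, a relative of the methyltransferases, rose, Kmt2e by 0.75 ± 0.22. Dpy30 and Rbbp5, core subunits of the methyltransferase complexes, changed by -0.64 ± 0.15 and -0.64 ± 0.18. Kmt2e and Rbbp5 lost their calls when replicate 1 or 2 without LIF or replicate 1 with LIF was left out (adjusted p 0.0878 to 0.258). Dpy30 lost its call when any 1 of the 4 arrays was left out (adjusted p 0.0505 to 0.112). Of 22 measured germline genes expressed in ES cells 6 were bright enough on average to be tested, with 3 falls and 0 rises. Genes dim without LIF could pass that filter only by being bright with LIF, so no share of falls is read from the list. Of the falls, Dppa3 is also in the ES cell marker list, and 2 of the 3 held in all 4 fits that left out an array. Ddx4, the helicase VASA, had 9.5 and 5.4 without LIF, against 143.6 and 84.9 with LIF (log2 change -2.44 ± 0.27, adjusted p = 0.000644), and Sohlh2, a helix-loop-helix factor of gonocytes, changed by -1.34 ± 0.32. Sohlh2 lost its call when replicate 1 or 2 without LIF or replicate 1 with LIF was left out (adjusted p 0.0916 to 0.119).

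Metabolic lists moved in different directions. All 15 tested sterol synthesis genes had a positive change and 8 passed (median 0.87), but 4 passed without replicate 2 with LIF and 2 of the 8 held in all 4 fits that left out an array. Cyp51, lanosterol demethylase, had 515.2 and 518.4 without LIF, against 186.6 and 114.7 with LIF (log2 change 1.71 ± 0.27, adjusted p = 0.00375), and Hmgcs1, the synthase at the head of the mevalonate pathway, had 4123 and 4141.5 without LIF, against 1935.3 and 1921 with LIF (log2 change 1.09 ± 0.15, adjusted p = 0.00193). Both held in all 4 fits that left out an array. In the glycolysis and hypoxia list 5 of 26 rose and 1 fell, and without replicate 2 with LIF 3 rose and 3 fell, and 1 of the 6 calls held in all 4 fits that left out an array. With all arrays 23.1% of that list was called, against 15.3% of all tested genes. Slc2a1, the glucose transporter GLUT1, had 5732.7 and 5038.9 without LIF, against 3027 and 2546 with LIF (log2 change 0.95 ± 0.15, adjusted p = 0.00329), and Pdk1, the kinase that restrains pyruvate entry into the tricarboxylic acid cycle, had 347.8 and 210.1 without LIF, against 830.2 and 560.6 with LIF (log2 change -1.28 ± 0.26, adjusted p = 0.0122). Pdk1 lost its call when replicate 2 without LIF or replicate 1 with LIF was left out (adjusted p 0.0688 to 0.0696). Amino acid and ATF4 genes gave 5 falls and 0 rises among 17 tested (median -0.40), and 1 of the falls held in all 4 fits that left out an array. Slc7a3, a cationic amino acid transporter of ES cells, had 99.4 and 177.6 without LIF, against 1102.7 and 837.4 with LIF (log2 change -2.71 ± 0.27, adjusted p = 0.000355). Cth, which makes cysteine, changed by -1.47 ± 0.28. Cth lost its call when replicate 1 without LIF was left out (adjusted p = 0.0628).

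Metallothioneins were bright with LIF and several-fold dimmer without it. Mt1 had 404.2 and 624 without LIF, against 3226.3 and 3821.6 with LIF (log2 change -2.77 ± 0.24, adjusted p = 0.000191) and Mt2 had 718.5 and 1111.1 without LIF, against 4380.7 and 4386.5 with LIF (log2 change -2.27 ± 0.21, adjusted p = 0.000261), and both held in all 4 fits that left out an array. The zinc transporters Slc30a1 and Slc39a4 changed by -1.21 ± 0.34 and -1.25 ± 0.35, so that 4 of 7 list members fell and 0 rose. Slc30a1 lost its call when replicate 1 without LIF or replicate 2 with LIF was left out (adjusted p 0.176 to 0.268). Slc39a4 lost its call when any 1 of the 4 arrays was left out (adjusted p 0.062 to 0.161). In the stress and immediate early list 1 of 13 rose and 5 fell, and without replicate 2 with LIF 1 rose and 3 fell, and 0 of the 6 calls held in all 4 fits that left out an array. Hmox1, heme oxygenase, and the chaperone gene Hsph1 changed by -1.34 ± 0.23 and -1.22 ± 0.23, while the AP-1 gene Jun rose by 0.93 ± 0.20. Hmox1 and Hsph1 lost their calls when replicate 1 without LIF was left out (adjusted p 0.055 to 0.0657). Jun lost its call when replicate 1 or 2 without LIF or replicate 1 with LIF was left out (adjusted p 0.0595 to 0.0809).

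The CDK inhibitor and p53 lists had few calls, and the replication and mitosis list lay near the share of all tested genes. Replication and mitosis genes gave 6 falls and 0 rises among 34 tested (17.6% called, against 15.3% of all tested genes, median -0.19), of which 5 were lost without replicate 1 without LIF and 1 held in all 4 fits that left out an array. Cdt1, the licensing factor, had 1478.6 and 1355.2 without LIF, against 2684.6 and 3218.3 with LIF (log2 change -1.05 ± 0.17, adjusted p = 0.00471). Without normalization the median of that list was 0.17. Of 15 CDK inhibitor and pocket protein genes 1 passed (6.67%), the cyclin gene Ccne1 as a fall with 613.8 and 739.9 without LIF, against 1287.3 and 1263.4 with LIF (log2 change -0.90 ± 0.21, adjusted p = 0.0185). Ccne1 lost its call when replicate 1 without LIF or replicate 1 with LIF was left out (adjusted p 0.069 to 0.137). In the p53 list 1 of 17 passed (5.88%), Gadd45a, a stress sensor, with 105.7 and 146.3 without LIF, against 498.9 and 411.9 with LIF (log2 change -1.74 ± 0.21, adjusted p = 0.00104). The respiratory chain list had 1 rise among 26 (3.85%), which did not hold in all 4 fits. The ribosomal protein list had 0 calls among 11 and a median of 0.02, which was -0.20 after scaling to the trimmed mean.

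Imprinted genes gave 8 rises and 0 falls among 24 tested (33.3% called, against 15.3% of all tested genes, median 0.85). Without replicate 2 with LIF 10 were higher and 1 lower. Leaving out another array lost more of these calls, 5 without replicate 1 without LIF, 6 without replicate 2 without LIF and 6 without replicate 1 with LIF, and 2 held in all 4 fits. Igf2, the fetal growth factor, had 3821.6 and 3303.2 without LIF, against 385.4 and 929.3 with LIF (log2 change 2.53 ± 0.39, adjusted p = 0.00312), and Mest, a paternally expressed mesoderm gene, had 7239.2 and 5678.7 without LIF, against 1898.1 and 2198 with LIF (log2 change 1.64 ± 0.20, adjusted p = 0.00115). These were the 2 that held. Peg3, a paternally expressed zinc finger gene, changed by 0.88 ± 0.18. Peg3 lost its call when replicate 1 or 2 without LIF or replicate 1 with LIF was left out (adjusted p 0.0506 to 0.0634). Oncofetal genes, expressed in embryos and tumors, gave 5 rises and 1 fall among 12 tested (50% called, against 15.3% of all tested genes). Of these calls 2 held in all 4 fits that left out an array. Hmga2, a DNA-architectural protein, had 3332.4 and 3564.6 without LIF, against 758.8 and 1576.5 with LIF (log2 change 1.64 ± 0.30, adjusted p = 0.00762) and Mycn, the MYC family member of ES cells, had 676.7 and 668.7 without LIF, against 1472.9 and 1465.3 with LIF (log2 change -1.11 ± 0.17, adjusted p = 0.00309). Interferon and antigen presentation genes gave 3 rises and 3 falls among 18 (33.3% called, against 15.3% of all tested genes). Of these calls 1 held in all 4 fits that left out an array. B2m, the class I light chain, changed by 1.12 ± 0.28 and the tetherin gene Bst2 by -1.13 ± 0.23. B2m lost its call when replicate 1 or 2 without LIF or replicate 1 with LIF was left out (adjusted p 0.109 to 0.139). Bst2 lost its call when replicate 2 without LIF or replicate 1 with LIF was left out (adjusted p 0.0697 to 0.0765).

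**Figure D3:**
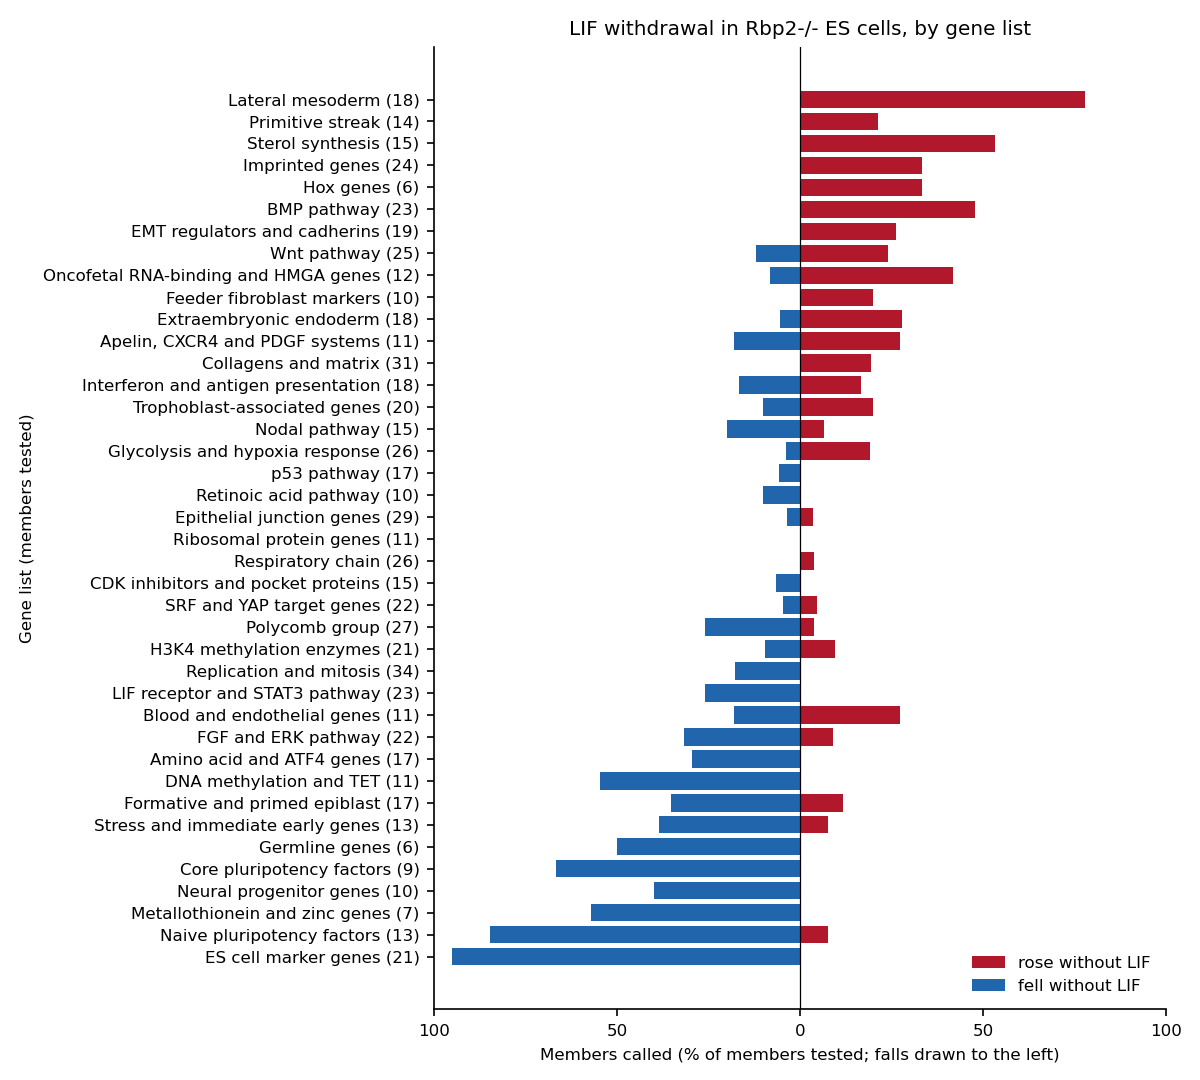
Percent of tested members called on LIF withdrawal in Rbp2-/- cells for each gene list with at least 3 tested members, with rises drawn to the right, falls to the left and the number tested in brackets. ES cell marker genes reach 95.2% falls, against 15.3% called in either direction over all tested genes. Lateral mesoderm genes show 77.8% rises among 18 tested of 27 measured. In every list, members dim with LIF passed the filter only if bright without LIF, and the reverse.

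The same withdrawal in Rbp2f/f cells, measured on other arrays, called 2915 genes (26.7%), with 1504 rises (13.8%) and 1411 falls (12.9%), and 4355 genes (39.9%) had an unadjusted p under 0.05. Of the 1675 Rbp2-/- calls, 1154 were called in the same direction in Rbp2f/f cells, which is 68.9% of the Rbp2-/- calls and 39.6% of the Rbp2f/f calls, and 2 were called in opposite directions. The sign was the same for 1610 of the 1675 (96.1%). Across tested genes the changes correlated with r = 0.74, and over the Rbp2f/f calls the Rbp2-/- change was 0.69 of the Rbp2f/f change by a line through 0, a description over genes that share arrays. On the scale of array positions, the Rbp2-/- arrays without LIF lay below 1 and those with LIF above 0. That scale and the calls behind the line were taken from the Rbp2f/f arrays themselves, which draws values of other arrays inward. Neither value therefore compares the size of the response between genotypes. The difference of the withdrawal effects was called for 0 of 10916 genes by limma (0%), with 1219 (11.2%) at an unadjusted p under 0.05, so no gene is reported here as responding differently.

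**Figure D4:**
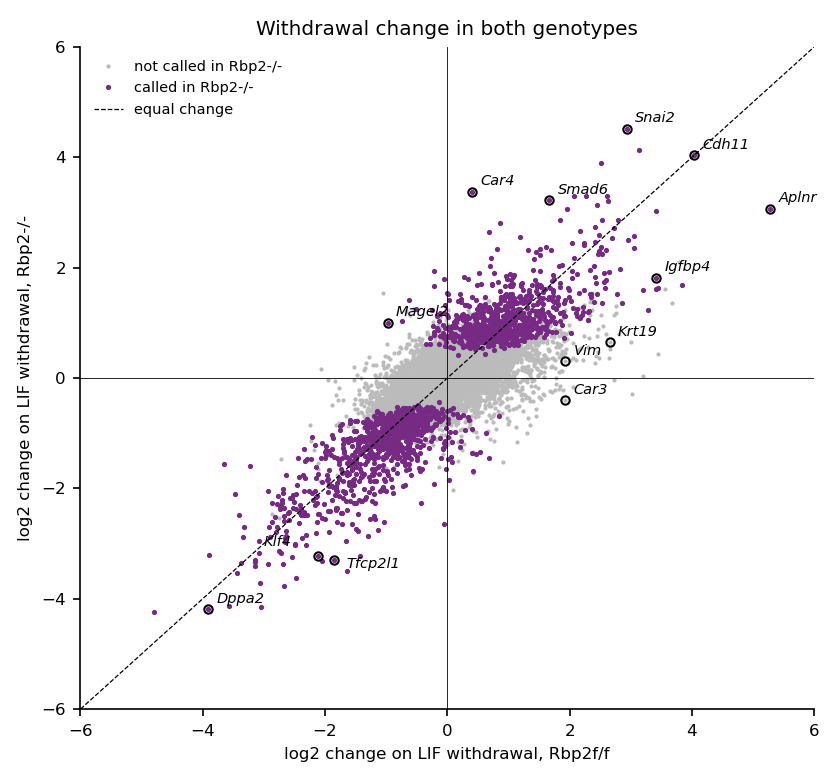
Log2 change on LIF withdrawal in Rbp2-/- cells (vertical axis) against that in Rbp2f/f cells (horizontal axis) for 10916 tested genes, with genes called in Rbp2-/- cells in purple and the dashed line marking equal change. Most purple points lie in the quadrants of like sign, and Car4, Magel2, Krt19, Vim and Car3 lie far from the dashed line.

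**Figure D5:**
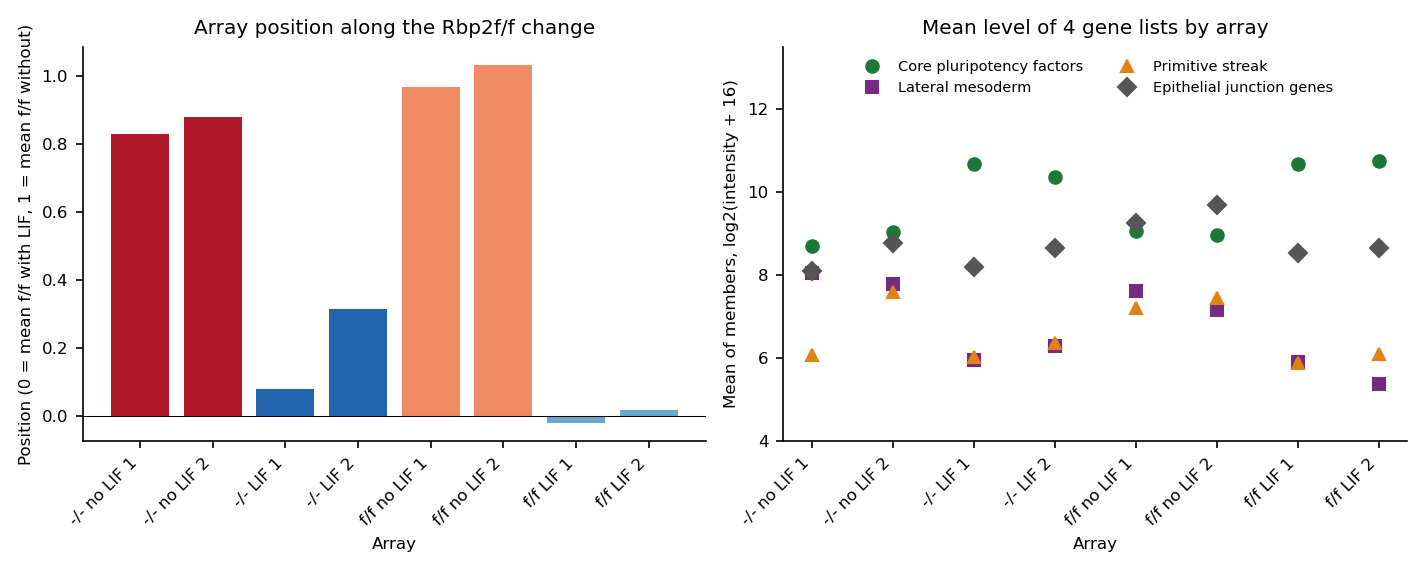
Position of each of the 8 arrays between the mean Rbp2f/f array with LIF (0) and without LIF (1), left panel, and the mean of log2(intensity + 16) over the members of 4 gene lists on each array, right panel. Rbp2-/- with LIF replicate 2 lies at 0.316, and primitive streak genes differ by 1.501 between the Rbp2-/- replicates without LIF.

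The 5 genes with the smallest p for the difference give its scale. Car3, a muscle carbonic anhydrase, had 115.7 and 144.4 without LIF, against 146 and 210.8 with LIF in Rbp2-/- cells and 237.5 and 278.3 without LIF, against 56.9 and 55.5 with LIF in Rbp2f/f cells. Krt19, a simple epithelial keratin, had 1235 and 1201.6 without LIF, against 626.8 and 946.9 with LIF in Rbp2-/- cells and 1424.2 and 1986.3 without LIF, against 274.1 and 234 with LIF in Rbp2f/f cells. Magel2, an imprinted gene of the Prader-Willi region, had 69.9 and 63.2 without LIF, against 22.6 and 27.9 with LIF in Rbp2-/- cells and 15.1 and 23.1 without LIF, against 51.6 and 53.7 with LIF in Rbp2f/f cells. The differences of log2 change were -2.32 ± 0.31, -2.01 ± 0.32 and 1.98 ± 0.32, and those of Fbxo6, a ubiquitin ligase subunit, and Igfbp4, an IGF-binding protein, -1.54 ± 0.26 and -1.59 ± 0.28. The adjusted p of these 5 genes was 0.316 at the lowest, so none passed. With LIF, Krt19 and Car3 were brighter on both Rbp2-/- arrays than on both Rbp2f/f arrays. Car4 rose in Rbp2-/- cells as given above, against 877.1 and 367.4 without LIF, against 295.6 and 608.9 with LIF in Rbp2f/f cells (log2 change 0.41 ± 0.49, adjusted p = 0.577 there), and the difference of 2.97 ± 0.70 did not pass (adjusted p = 0.342). Fibroblast marker sums in Rbp2f/f cells were 1400 and 1322 without LIF, against 553.7 and 331.9 with LIF. The Y-linked gene Eif2s3y read 180.3 and 98.7 without LIF, against 213.1 and 95.7 with LIF in Rbp2-/- cells and 13.8 and 3.8 without LIF, against 8.7 and 4.5 with LIF in Rbp2f/f cells, so the genotypes also differed in a transcript outside the deleted gene in both media.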

How the data were processed

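Transcripts were measured on 8 Affymetrix mouse 430 2.0 arrays. Per the labels' protocols, 6 ug of column-purified, DNase-treated total RNA went into each biotin labelling. The authors deposited probe set intensities on a linear scale, from 0.1 to 11476.5 with 39 zeros. The sources used here do not give the software, background correction or scaling behind them. The platform annotation gave 34958 of the 45101 probe sets 1 gene symbol, 932 several and 9211 none. Gene identifiers of 34754 were matched to a RefSeq gene table of GRCm38.p6, and 0 symbols changed.

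From these intensities, log2(value + 16) was quantile normalized over the 8 arrays, and each of 18194 genes was represented by its brightest probe set on average. The 10916 genes at or above the 40th percentile of the mean (intensity 26.6) were tested. limma 3.58.1 in R 4.3.3 fitted 4 group means by lmFit and eBayes with a mean-variance trend (4 residual and 5.37 prior degrees of freedom). P-values were two-sided, Benjamini-Hochberg adjusted over all tested genes, and called under 0.05. Printed intensities are normalized values with 16 subtracted again, and a list median is over tested members. The number of arrays limits the precision. The fit was tested on simulated data.

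The gene lists, motifs and members were chosen with earlier results of these data known, so no list counts as independent support. Some genes belong to several lists, so the list counts are not separate from each other. Named genes were the 15 largest rises and 15 largest falls among calls whose arrays did not overlap, preset anchor genes and Kdm5a, the 5 members of each list with the smallest p (every member under 8 tested), the 5 smallest p for the difference of withdrawal effects, and the 10 smallest adjusted p. Dcn and Lum were named as cell type markers. Genes known only by a clone or predicted name (35 of the calls) were not named. Of 234 named genes, 117 had another probe set above the filter, and in 6 of them one moved the opposite way (Acvr1b, Nes, Rps24, Setd7, Socs2 and Stat3). Alternatives were other normalizations, pseudocounts, filters, probe set summaries, variance models, array weights, a stricter threshold, the 4 arrays alone, the replicate number as a block, and each array left out. Leaving an array out leaves 1 sample in its group, which is assumed to vary like the others. Promoter sequences are RefSeq's, 250 bases before to 50 after a start site.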

Additional observations from a re-analysis of the deposited data

Results flagged for a closer look

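For 8 named genes the arrays moved one way on withdrawal in Rbp2-/- cells and the opposite way in Rbp2f/f cells, with no overlap between media in either genotype. Car3, Magel2 and Fbxo6 were named for their small p for this same difference. The share of all tested genes with such a pattern is not given here, so the count is not read as a result. In Rbp2-/- cells alone, arrays did not overlap for 28.8% of tested genes as higher without LIF and 29.7% as lower. For 3 of the 8 the log2 change in Rbp2-/- cells turns sign under another scaling, Car3 to 0.044 and Stat3 to 0.16 without normalization, and Rps24 to -0.13 after scaling to the trimmed mean. For none did the difference of the withdrawal effects pass in limma, at an adjusted p of 0.316 or more. Of the differences in log2 change, Rbp2-/- minus Rbp2f/f, that of Car3, the muscle carbonic anhydrase, was -2.32, that of Actc1, cardiac alpha-actin, -2.19, and that of Magel2, the imprinted gene, 1.98. For Hspb1, a small heat shock protein, it was -1.64, for Fbxo6, the ubiquitin ligase subunit, -1.54, and for Sesn1, a p53-induced sestrin, 1.13. For Stat3, the transcription factor activated by LIF, it was -0.82, and for the ribosomal protein gene Rps24 0.16, and both have another probe set that moved the other way in Rbp2-/- cells. Stat3 read 423.5 and 437 without LIF, against 510.2 and 495.2 with LIF in Rbp2-/- cells, and 464.1 and 524 without LIF, against 316.1 and 322.7 with LIF in Rbp2f/f cells. Hspb1 read 1913.4 and 4004.2 without LIF, against 5263.1 and 5884.5 with LIF in Rbp2-/- cells, and 5211.6 and 7365.2 without LIF, against 4017.5 and 3959.1 with LIF in Rbp2f/f cells.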

How the results depend on the processing

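Calls for withdrawal in Rbp2-/- cells numbered 1075 when the 4 arrays were fitted alone and 617 at an adjusted p under 0.01, against 1675, and ranged over 557 to 1722 when 1 array was left out. In Rbp2f/f cells they numbered 1222 at that threshold and 842 to 3298 with 1 array left out, lowest without replicate 2 of Rbp2f/f without LIF, against 2915. Replicate numbers were not taken as pairs (correlation of same-numbered deviations 0.273 in Rbp2-/- and -0.053 in Rbp2f/f cells), and the replicate block gave 1898 calls in Rbp2-/- cells and 1 call for the difference of withdrawal effects, against 0. With 1 array left out that count ranged over 0 to 1, with 1 when replicate 2 of Rbp2-/- without LIF was absent. Of 170 called named genes 87 kept the call under every alternative, and 0 changed sign. Of 5515 values of named genes 33 turned sign, all of uncalled genes. Without normalization the log2 changes became 0.12 for Asz1, 0.044 for Car3, 0.32 for Eif2s3y, 0.032 for Gtse1, 0.22 for Prdm1, 0.066 for Rps2 and 0.16 for Stat3, and after median centring 0.077 for Eif2s3y. After scaling to the trimmed mean they became -0.10 for Rpl19, -0.028 for Rps18 and -0.13 for Rps24. Other probe set choices gave -0.088 (mean) and -0.83 (largest variance) for Lifr, -0.50 for Rps24 and 0.067 for Stat3. With 1 array left out the log2 change ranged over -1.41 to 0.14 for Cdh1, -0.61 to 0.43 for Eif2s3y, -0.37 to 1.83 for Eomes, -0.61 to 1.56 for Fgf5, -0.26 to 0.34 for Hoxa5 and -0.25 to 0.33 for Hoxa9. In the same fits it ranged over -0.041 to 0.29 for Il6st, -0.27 to 0.51 for Nes, -0.70 to 1.11 for Otx2, -0.40 to 0.18 for Prdm1, -1.39 to 0.011 for Rdh10 and -0.19 to 0.41 for Sox17. Apart from the fits with fewer arrays, which have fewer degrees of freedom, the cause was not tested. Dim probe sets limit what can be seen, since a gene under the filter was not tested.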
